A study of Mus musculus with 28 samples.

Results

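The 6 genes followed here mark or shape dendritic cells, and their chromatin was read in mouse macrophages: Flt3, Xcr1, Siglech, Zbtb46, Id2 and Ccr7. Peaks of H3K27ac and of the glucocorticoid receptor were given to a gene when its span was the nearest protein-coding span of the mm10 genome within 50 kb. By this rule 26 of 63313 H3K27ac peaks and 4 of 8394 glucocorticoid receptor peaks belonged to the 6 genes. Xcr1 had 9 of the H3K27ac peaks, Zbtb46 had 5, Ccr7 had 4, Flt3 and Id2 had 3 each, and Siglech had 2. The receptor peaks were 2 at Flt3, 1 at Xcr1 and 1 at Siglech, and none was nearest to Zbtb46, Id2 or Ccr7. A pair of the H3K27ac peaks was equally near to a further protein-coding gene, Fyco1 at Xcr1 and Zgpat at Zbtb46. Among annotated genes of all types, every Ccr7 peak was nearest Gm32249, and the Id2 peaks outside the gene were nearest Gm36287. The Xcr1 receptor peak and the outer upstream H3K27ac peaks of Xcr1 were nearest Gm2774.

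The cells were primary macrophages grown from bone marrow of male C57BL/6 mice, 8 to 10 weeks old, with no further allele in the labels. They were given vehicle, corticosterone at 500 nM (Cort, the main natural glucocorticoid of mice), dexamethasone at 100 nM (Dex, a synthetic glucocorticoid) or interleukin 4 at 10 ng/ml (IL4, a cytokine that acts through STAT6), and the treatment lasted 24 h. Chromatin immunoprecipitation sequencing read H3K27ac, the acetylated lysine 27 of histone H3 that accompanies active promoters and enhancers, in 3 libraries per group. The glucocorticoid receptor (GR), a hormone-dependent transcription factor, was measured in 4 libraries each of vehicle, Cort and Dex and in 3 of IL4, all 3 of the latter in batch 2. The labels do not say whether libraries of a group came from separate animals, so p-values measure only the spread between these libraries.

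Dendritic cells arise from bone marrow progenitors that carry FLT3, the receptor tyrosine kinase for FLT3 ligand, and that signal keeps the lineage going. Conventional dendritic cells express ZBTB46, a zinc finger factor that marks this lineage, and their cross-presenting branch (cDC1) needs ID2 and carries XCR1, the receptor for the chemokine XCL1. Plasmacytoid dendritic cells carry the lectin SIGLECH and depend on the E protein that ID2 opposes, while CCR7 guides maturing dendritic cells to lymph nodes. H3K27ac near such a gene is a measure of chromatin, not of its transcript or protein.

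A pair of promoters lay under an H3K27ac peak, those of Xcr1 and Id2, and are shown because H3K27ac was measured over them. The sequences are from RefSeq (GRCm38.p6, the mm10 assembly) and are written 5′ to 3′ on the minus strand, from which both genes are read. The Xcr1 stretch, chr9:123862035-123862279, is the part of the promoter window inside the peak, and the Id2 stretch, chr12:25096093-25096342, ends where the gene begins. Capitals mark matches, on either strand, to the CCAAT box (CCAAT), the TATA box (TATAAA) and the ETS core (GGAAGT).
Xcr1: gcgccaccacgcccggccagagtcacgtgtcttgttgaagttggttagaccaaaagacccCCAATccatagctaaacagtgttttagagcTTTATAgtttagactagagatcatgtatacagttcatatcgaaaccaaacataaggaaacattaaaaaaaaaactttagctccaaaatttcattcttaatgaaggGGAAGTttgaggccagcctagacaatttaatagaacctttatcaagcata
Id2: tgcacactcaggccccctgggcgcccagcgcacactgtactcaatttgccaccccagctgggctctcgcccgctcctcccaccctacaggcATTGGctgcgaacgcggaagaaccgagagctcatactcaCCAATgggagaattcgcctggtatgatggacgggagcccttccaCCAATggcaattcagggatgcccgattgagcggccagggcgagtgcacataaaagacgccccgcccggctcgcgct

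Xcr1 held 1 match to each of these motifs and Id2 held 3 CCAAT boxes. Among 32851 mouse promoter windows of the same source, 37.4% held a CCAAT box, 13.6% a TATA box and 23.8% an ETS core. The full glucocorticoid response element (GNACA and TGTNC with 3 bases between, in 0.475% of windows) and the STAT6 site (TTC and GAA with 4 bases between, in 6.95%) had no match in the windows of the 5 genes with an entry, which were Zbtb46, Flt3, Siglech, Xcr1 and Id2. The shorter receptor motif AGAACA, in 19% of windows, occurred once, in the Zbtb46 window. No H3K27ac peak covered the promoter windows of Flt3, Siglech or Zbtb46. The Zbtb46 window, chr2:181424339-181424638, lies inside the gene's span of chr2:181371009-181493262. The 5′ end of that span was not searched for motifs.

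H3K27ac counts in peaks totalled 6829787 to 15695771 per library, and GR counts totalled 900063 to 1981582. In every GR library a single region held 45.4% to 59.2% of the counts, and scaling factors ran from 0.392 to 1.721. Changes were tested peak by peak with edgeR's quasi-likelihood test, with p adjusted by Benjamini-Hochberg over all tested peaks (59881 for H3K27ac and 5183 for GR), and a peak was called at an adjusted p under 0.05. Of the members' peaks, 25 H3K27ac and 3 GR peaks had enough reads to be tested. Levels are given in CPM, read counts relative to the library's counts in peaks after trimmed-mean scaling. All 13 macrophage marker genes had H3K27ac peaks, with summed levels of 4190 to 4750 CPM in vehicle. H3K27ac libraries with the same number varied together, so a second fit with the replicate number as a block is given where it changed a call or a count.

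The 6 genes differed in how strongly they were acetylated. Per kilobase and over all 12 libraries, the Xcr1 start-site peak averaged 17.7 CPM, above 95.3% of H3K27ac peaks, and the peak over Id2 averaged 20.0 CPM, above 97.1%. The strongest Flt3 peak averaged 10.7 CPM per kb (83.7%), the strongest Siglech peak 9.57 (80.7%) and the strongest Zbtb46 peak 7.98 (75.3%). The 4 Ccr7 peaks averaged 2.74 to 3.42 CPM per kb, above 17.8% to 36.2% of peaks. By its strongest peak over all 12 libraries, Ccr7 was the least acetylated of the 6. In vehicle alone, summed over a gene's peaks, Flt3 was at 3.95 CPM per kb, Ccr7 at 3.97 and Zbtb46 at 4.16. In bulk chromatin, a change in the number of cells of a type and a change per cell cannot be told apart.

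Both steroids raised acetylation at Flt3, and IL4 lowered it at Xcr1. Cort called 1 of the 25 tested peaks, which was higher, against 1.55% of all tested peaks. Dex called 3, all higher, against 5.24%, and IL4 called 11, of which 2 were higher and 9 lower, against 27.6%. The median log2 fold change over the 25 peaks was 0.02, -0.14 and -0.37 for Cort, Dex and IL4, and 0.003, 0.010 and -0.023 over all tested peaks. With the replicate block, Cort called 8 (5 higher and 3 lower, against 6.44% and 6.13% of all peaks and 12.6% in either direction), Dex 9 (5 higher and 4 lower, against 20.3%) and IL4 15 (3 higher and 12 lower, against 43.5%). The 3 comparisons share the vehicle libraries. Some of these counts changed when 1 library was left out, also a library of another group, since all groups share an estimate of the spread. Cort called 2 without vehicle replicate 1, Dex replicate 2 or Dex replicate 3, and 3 without Cort replicate 2. Dex called 1 without vehicle replicate 2, vehicle replicate 3 or Dex replicate 3, and 5 without Dex replicate 2. IL4 called 3 without vehicle replicate 2 or IL4 replicate 3, and 7 without vehicle replicate 3 or IL4 replicate 1. Counts over all tested peaks moved too. There IL4 called 8827 higher and 7711 lower with all libraries, and 6713 and 5519 without vehicle replicate 2. Dex called 1734 and 1404 with all libraries, 804 and 381 without vehicle replicate 3, and 2322 and 1846 without Dex replicate 2. Cort called 704 and 225 with all libraries, and 461 and 163 without vehicle replicate 1.

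**Figure D1:**
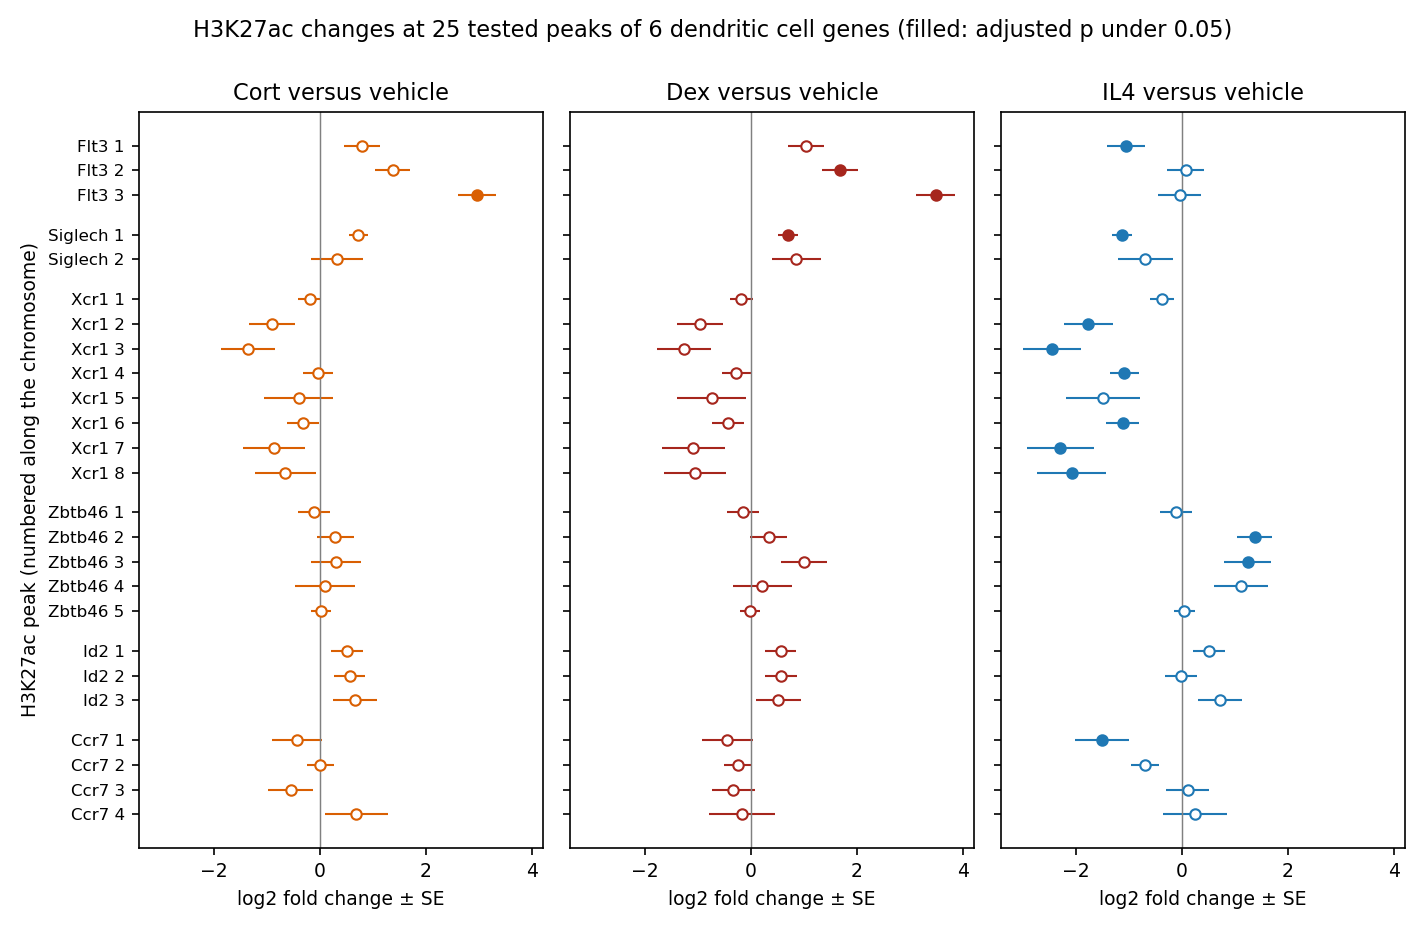
Log2 fold change (x axis, with standard error) of each tested H3K27ac peak (y axis, numbered along the chromosome within each gene) for Cort, Dex and IL4 against vehicle; filled points have an adjusted p under 0.05. The third Flt3 peak lies at 2.96 with Cort and 3.48 with Dex, and 6 of 8 Xcr1 peaks are filled below 0 with IL4.

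Flt3 spans chr5:147330741-147400489 and is read from the minus strand, and its 3 H3K27ac peaks all lie inside it, centred 7.4, 11.2 and 37.3 kb past the start. The peak nearest the start, chr5:147392209-147393948, was at 1.73, 1.64 and 1.36 CPM in vehicle replicates 1 to 3 and at 1.97, 1.54 and 1.15 CPM with IL4. It was at 13.5, 8.64 and 14.7 CPM with Cort and at 21.7, 9.33 and 21.6 CPM with Dex. All 6 steroid libraries were above all 6 others, with replicate 2 the lowest of each steroid group. The log2 fold change was 2.96 ± 0.36 (SE, n = 3) with Cort, 7.77-fold, and 3.48 ± 0.36 with Dex, 11.2-fold (edgeR adjusted p = 0.000784 and 0.000127). With IL4 it was -0.04 ± 0.40 (adjusted p = 0.956). Leaving out any 1 of the 12 libraries kept both steroid calls, at 2.80 to 3.17 and 3.29 to 3.79.

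The middle Flt3 peak, chr5:147388407-147390163, holds one of the GR peaks. It was at 7.18, 4.59 and 6.26 CPM in vehicle, at 18.4, 10.2 and 18.2 with Cort, at 20.7, 10.4 and 26.7 with Dex, and at 7.39, 5.92 and 5.62 with IL4. The steroid groups again did not overlap vehicle, while IL4 did. The Dex change of 1.68 ± 0.33 (log2, n = 3) was called (edgeR adjusted p = 0.0106), but not without vehicle replicate 2, vehicle replicate 3 or Dex replicate 3 (adjusted p up to 0.0611). The Cort change of 1.37 ± 0.33 missed the threshold (adjusted p = 0.0593) and was called with the block (1.36, adjusted p = 5.8e-05). IL4 gave 0.07 ± 0.34 (adjusted p = 0.913).

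The peak deepest in Flt3, chr5:147362386-147363899, moved in opposite directions with IL4 and the steroids. It was at 13.5, 11.1 and 12 CPM in vehicle, at 24.4, 13.0 and 26.7 with Cort, at 29.9, 12.7 and 32.7 with Dex, and at 7.27, 4.38 and 6.02 with IL4. Replicate 2 of both steroids fell within the vehicle range, and every IL4 library was below it. IL4 lowered the peak by -1.05 ± 0.35 (log2, n = 3, edgeR adjusted p = 0.0398). That call was lost without any 1 of the vehicle or IL4 libraries or without Cort replicate 1, with adjusted p up to 0.131, and stood at 0.000106 with the block. Cort gave 0.80 ± 0.34 and Dex 1.04 ± 0.34 (adjusted p = 0.306 and 0.0945), which the block called at 0.75 and 0.96 (adjusted p = 0.00616 and 0.00033).

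**Figure D2:**
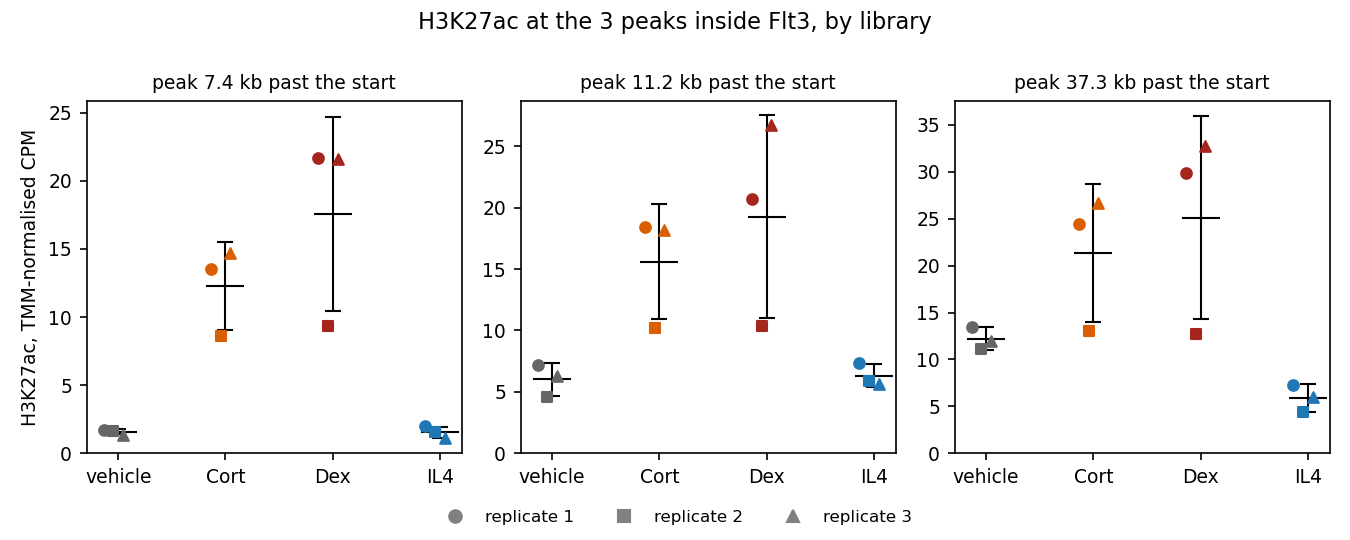
H3K27ac (y axis, normalised CPM, from 0) at the 3 peaks inside Flt3 in each library, by treatment (x axis); marker shapes are replicates, and bars are the mean and SD of 3 libraries. At the peak 7.4 kb past the start the steroid libraries lie between 8.64 and 21.7 CPM and all others at or below 1.97.

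The balance among the Flt3 peaks was read as shares of their reads. The peak 7.4 kb past the start held 8.06% ± 1.29 (SD, n = 3) of the reads in the 3 Flt3 peaks in vehicle, 25.2% ± 1.68 with Cort, 28.5% ± 1.67 with Dex and 11.3% ± 2.07 with IL4. An exact two-sided permutation test of this share gave p = 0.10 for Cort, 0.10 for Dex and 0.20 for IL4 against vehicle, where 0.10 is the smallest p that 3 against 3 libraries allow. The share of the 37.3 kb peak was 61.8% in vehicle and 42.9%, 40.3% and 42.6% with Cort, Dex and IL4, with no overlap with vehicle (exact permutation p = 0.10 each). These similar shares came with different levels, on average 12.2 CPM in vehicle, 21.4 with Cort, 25.1 with Dex and 5.89 with IL4. The middle peak held 30.2% in vehicle, 31.8% with Cort, 31.2% with Dex and 46.1% with IL4 (exact permutation p = 0.50, 0.60 and 0.10). Its level averaged 6.01 CPM in vehicle and 6.31 with IL4. The 3 shares of a library make up its whole, so a higher share of 1 peak lowers the rest, and the tests depend on each other. These 9 share tests were not adjusted, and none could pass 0.05. Reads in the 3 peaks numbered 135 to 1109 per library. The share of the 7.4 kb peak in single libraries had 95% Wilson intervals that together spanned 4.64% to 14.2% in vehicle and 20.0% to 33.8% with Cort and Dex, for counting error only.

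Siglech spans chr7:55768154-55779448, and its main H3K27ac peak, chr7:55783629-55785875, begins 4.2 kb past the 3′ end of the gene. It was at 22.3, 16.1 and 16.2 CPM in vehicle, at 36.1, 25.2 and 28.7 with Cort, at 34.0, 27.7 and 27 with Dex, and at 8.26, 8.10 and 8.60 with IL4. The groups formed 3 tiers without overlap: IL4 lowest, vehicle between, and the steroids highest. IL4 lowered it by -1.12 ± 0.19 (log2, n = 3, edgeR adjusted p = 0.000809), 2.17-fold, and this held without any 1 library. The Dex change of 0.70 ± 0.18 was called at an adjusted p of 0.0397 and was lost with scaling by total counts (0.0928). It was also lost without vehicle replicate 2 or 3, Dex replicate 1 or 3, or any 1 IL4 library, with adjusted p up to 0.161. Cort gave 0.72 ± 0.18 (adjusted p = 0.0693), and the block called both steroids (adjusted p = 0.000357 for Cort and 0.000211 for Dex). The smaller Siglech peak, chr7:55786449-55786936, stayed at 0.271 to 2.94 CPM and was not called against vehicle.

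Xcr1 spans chr9:123852315-123862029. IL4 lowered 6 of its 8 tested peaks, with a median log2 fold change of -1.62, where 12.9% of all tested peaks were called lower. These neighbouring peaks share libraries and are not separate observations. EdgeR called no Xcr1 peak with either steroid (1 of 8 with Cort and 2 with Dex had an unadjusted p under 0.05, and DESeq2 called none). At the start-site peak, chr9:123862035-123864171, which covers the promoter letters shown above, levels were 35.7, 61.6 and 41.1 CPM in vehicle and 20.6, 28.2 and 16.5 with IL4. They were 40.5, 61.1 and 32.4 CPM with Cort and 31.9, 48.6 and 34.5 with Dex. Every IL4 library was below every other library, and replicate 2 was the highest in each group. IL4 changed the peak by -1.08 ± 0.28 (log2, n = 3, edgeR adjusted p = 0.0113), Cort by -0.04 ± 0.28 (0.975) and Dex by -0.27 ± 0.28 (0.664).

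The largest Xcr1 decrease with IL4 stood inside the gene, at chr9:123857907-123859798, 3.2 kb past the start. This Xcr1 peak was at 6.19, 17.6 and 9.06 CPM in vehicle, at 2.22, 2.84 and 1.08 with IL4, at 2.41, 7.53 and 2.36 with Cort, and at 4.40, 6.83 and 2.56 with Dex. IL4 libraries lay below vehicle without overlap, while replicate 2 of both steroids overlapped it. The IL4 change was -2.44 ± 0.55 (log2, n = 3, edgeR adjusted p = 0.00514), 5.44-fold lower, and was called without any 1 library (-2.80 to -1.93). Cort gave -1.36 ± 0.51 (adjusted p = 0.247) and Dex -1.26 ± 0.51 (0.186), and the block called both (-1.45 and -1.30, adjusted p = 0.000176 and 0.000229). The neighbouring Xcr1 peak, chr9:123855871-123857756, was at 28.9, 48.8 and 27.5 CPM in vehicle and 9.49, 14.0 and 7.58 with IL4, a change of -1.76 ± 0.46 (adjusted p = 0.0114). Upstream of Xcr1, IL4 gave -1.11 at chr9:123867980-123869777, -2.29 at chr9:123870466-123871844 and -2.07 at chr9:123872147-123872863 (adjusted p = 0.0172, 0.0158 and 0.0294).

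The Xcr1 peak with the highest level is shared with Fyco1, which encodes an adaptor for vesicle transport. This peak, chr9:123849429-123854478, was at 137, 195 and 132 CPM in vehicle, at 111, 170 and 126 with Cort, at 116, 174 and 118 with Dex, and at 113, 145 and 102 with IL4. The groups overlapped, and none of the 3 comparisons called it (IL4 -0.37 ± 0.22, edgeR adjusted p = 0.237, called with the block at 0.001). With the block all 8 tested Xcr1 peaks were lower with IL4, 3 with Cort and 4 with Dex, where 21.6%, 6.13% and 10.3% of all tested peaks were lower. At Xcr1, leaving out vehicle replicate 2 or IL4 replicate 3 raised the adjusted p to at most 0.0994, and the peak 3.2 kb past the start was the one that kept its call. The remaining Xcr1 peak, chr9:123855232-123855443, held 0 to 15 reads per library and was not tested.

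Markers of other cell types were summed beside these results. The 2 B cell marker genes with H3K27ac peaks had summed levels of 211 to 277 CPM in vehicle and 135 to 194 CPM with IL4, 171 to 214 with Cort and 159 to 194 with Dex. These genes contributed unevenly: in vehicle the peak with the smallest p averaged 104 CPM at Ms4a1 and 2.9 CPM at Cd79a. Of 8 T and NK cell genes, 5 had peaks, at 97.8 to 133 CPM in vehicle and 75.0 to 103 with IL4, and Cd3e, Cd3g and Zap70 had none. Of 7 fibroblast genes 1 had peaks, at 53.0 to 61.8 CPM in vehicle and 65.3 to 87.9 in the treated libraries, and Col1a1, Col1a2, Col3a1, Pdgfra, Dcn and Lum had none. The part of such cells in the results at Xcr1 and Flt3 was not tested.

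**Figure D3:**
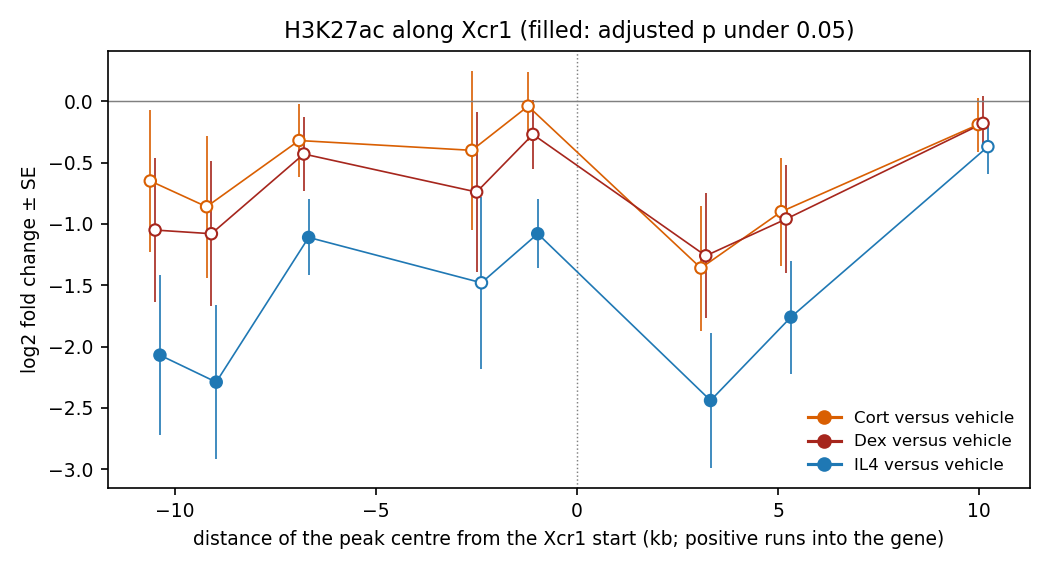
Log2 fold change with standard error (y axis) of the 8 tested Xcr1 H3K27ac peaks against the distance of their centres from the gene's start (x axis, kb), for Cort, Dex and IL4 against vehicle; filled points have an adjusted p under 0.05. IL4 lies lowest at every position, from -2.44 inside the gene to -0.37 at the peak shared with Fyco1.

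Zbtb46 spans chr2:181371009-181493262 and gained acetylation with IL4 at weak peaks. The peak chr2:181409879-181411232 was at 2.72, 2.29 and 1.43 CPM in vehicle, at 1.98, 3.14 and 2.47 with Cort, at 3.55, 3.05 and 1.54 with Dex, and at 5.79, 6.08 and 4.47 with IL4. Each IL4 library was above every other library. The IL4 change was 1.37 ± 0.33 (log2, n = 3, edgeR adjusted p = 0.00809), 2.58-fold, and held without any 1 library. A second Zbtb46 peak, chr2:181483349-181483948, gave 1.24 ± 0.44 with IL4 (adjusted p = 0.0496), at 6 to 42 reads per library. That call was lost under total-count scaling, under scaling by low-count peaks and in 9 of 12 omissions of a library (adjusted p up to 0.149), namely each vehicle and IL4 library, Cort replicates 1 and 3 and Dex replicate 1. The strongest Zbtb46 peak, chr2:181487040-181488391, was at 9.91, 12 and 10.2 CPM in vehicle, at 10.8, 10.5 and 11.2 with Cort, at 10.0, 9.33 and 12.4 with Dex, and at 8.87, 11.1 and 13.1 with IL4. Its groups overlapped, with log2 changes of 0.02, -0.02 and 0.05 (95% intervals within -0.42 to 0.45). EdgeR called no Zbtb46 peak with Cort or Dex (0 and 1 of 5 had an unadjusted p under 0.05, and DESeq2 called none).

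Id2 encodes a small inhibitor of E proteins, and its span, chr12:25093799-25096092, lies wholly in a peak of 9736 bp, chr12:25092355-25102090. This peak was at 155, 95.3 and 188 CPM in vehicle, at 217, 137 and 272 with Cort, at 220, 151 and 276 with Dex, and at 223, 147 and 258 with IL4. Within each replicate number the treated libraries were above vehicle, but the groups overlapped, since replicate 2 was low and replicate 3 high throughout. The changes of 0.51 ± 0.30 with Cort, 0.56 ± 0.30 with Dex and 0.52 ± 0.30 with IL4 (log2, n = 3) were not called (edgeR adjusted p = 0.502, 0.34 and 0.231). With the replicate block they were 0.51, 0.57 and 0.53 with a standard error of 0.07 each, and all were called (adjusted p = 5.01e-05, 6.13e-06 and 3.44e-06). The other pair of Id2 peaks lies 45.9 and 47.0 kb from the gene. The nearer one, chr12:25142036-25142915, was at 2.60, 2.29 and 3.54 CPM in vehicle, at 4.25, 3.42 and 4.94 with Cort, at 5.14, 2.57 and 4.97 with Dex, and at 2.34, 2.67 and 3.32 with IL4. Without the block edgeR and DESeq2 called no Id2 peak against vehicle, and 0 of 3 had an unadjusted p under 0.05.

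Ccr7 spans chr11:99144199-99155077, and all 4 of its peaks lie outside the gene. At the strongest, chr11:99164401-99165820, 9.3 kb away, levels were 6.81, 5.98 and 5.89 CPM in vehicle, 3.12, 7.46 and 2.81 with Cort, 3.06, 8.60 and 1.97 with Dex, and 2.09, 2.92 and 1.56 with IL4. The IL4 libraries were all below vehicle, whereas replicate 2 of each steroid was above vehicle and the other libraries below. IL4 changed it by -1.50 ± 0.51 (log2, n = 3, edgeR adjusted p = 0.0409). The call was lost without any 1 vehicle library or without IL4 replicate 1 or 3 (adjusted p up to 0.153), and with the block it stood at 0.000187. The next Ccr7 peak, chr11:99167680-99168582, changed by -0.69 ± 0.26 with IL4 (adjusted p = 0.0624, and 0.0285 with the block). EdgeR and DESeq2 called no Ccr7 peak with Cort or Dex, and 0 of 4 had an unadjusted p under 0.05.

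**Figure D4:**
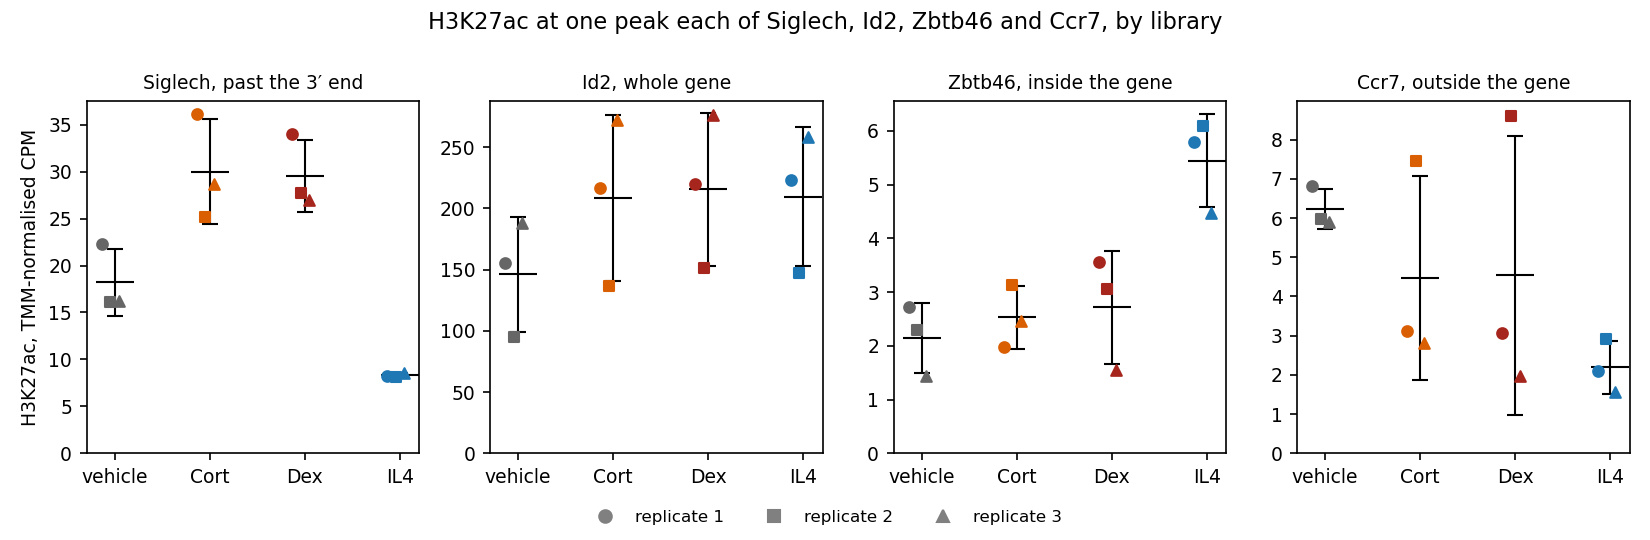
H3K27ac (y axis, normalised CPM, from 0, a scale for each panel) at one peak each of Siglech, Id2, Zbtb46 and Ccr7 in each library, by treatment (x axis); marker shapes are replicates and bars are the mean and SD of 3 libraries. IL4 libraries are the lowest at Siglech, 8.10 to 8.60 CPM, and the highest at Zbtb46, 4.47 to 6.08 CPM.

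Compared directly, all 3 Flt3 peaks were higher with either steroid than with IL4. The difference at the peak 7.4 kb past the Flt3 start was 3.00 ± 0.36 for Cort and 3.52 ± 0.36 for Dex (log2, n = 3, edgeR adjusted p = 6.87e-05 and 1.85e-05). At the 37.3 kb peak it was 1.86 and 2.10 (adjusted p = 0.0019 and 0.000744), and at the main Siglech peak 1.84 ± 0.19 and 1.82 ± 0.19 (adjusted p = 2.21e-05 and 2.04e-05). Zbtb46 went the other way at chr2:181409879-181411232, with -1.07 and -1.02 (adjusted p = 0.0298 and 0.0334). These Zbtb46 calls were lost without IL4 replicate 1 or 2 and without Cort replicate 1 or 3, or Dex replicate 3, respectively (adjusted p up to 0.0905 and 0.131). The Xcr1 start-site peak was higher with Cort by 1.04 ± 0.28 (adjusted p = 0.0153), lost without Cort replicate 2 or IL4 replicate 3 (up to 0.076). It was higher with Dex by 0.82 ± 0.28 (0.0453), lost in 6 of 12 omissions (vehicle replicate 3, Cort replicate 1, Dex replicates 2 and 3, IL4 replicates 1 and 3; up to 0.175).

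In all, Cort against IL4 called 6 of the 25 peaks (5 higher, 1 lower, against 25% of all tested peaks), and 16 with the block (14 higher, 2 lower, against 40.4%, of which 19.9% higher). Dex against IL4 called 7 (6 higher, 1 lower, against 26.7%), and 12 with the block (11 higher, 1 lower, against 42.7%). The seventh peak with Dex was the smaller Siglech peak, at 1.55 ± 0.50 (log2, n = 3, edgeR adjusted p = 0.0343), lost without Dex replicate 1 or 3 or IL4 replicate 2 or 3 (up to 0.147).

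The steroids were given at different concentrations, 500 nM for Cort and 100 nM for Dex, so their values stand side by side without a comparison of potency. No member peak was called between them by edgeR or DESeq2, none reached an unadjusted p under 0.05, and 0% of all tested H3K27ac peaks were called. The difference of Dex from Cort at Flt3 was 0.52 (95% interval -0.13 to 1.18) at the peak 7.4 kb past the start. It was 0.31 (-0.37 to 0.99) at the middle Flt3 peak, 0.24 (-0.47 to 0.95) at the deepest, and -0.02 (-0.41 to 0.37) at the main Siglech peak. All 4 intervals contained 0, and a missed threshold does not show that the steroids act alike.

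The 6 genes had 4 GR peaks, where 6931 GR peaks in all were within 50 kb of one of 21896 protein-coding genes. In the pooled fit with batch as a covariate, 1 of the 3 tested GR peaks was called with Cort, against 27.6% of all GR peaks, and the same one with Dex, against 30.3%. Without IL4 replicate 3 each steroid called 2, of which 1 was higher. In that fit Cort called 708 higher and 478 lower of all 5868 tested GR peaks, and Dex 869 and 622. With IL4 edgeR called none of the 3, and 0% of all GR peaks, where 1 of the 3 and 612 of all had an unadjusted p under 0.05, and DESeq2 called 1 of the 3 and 25 higher and 166 lower of all. Dex and Cort did not differ by edgeR or DESeq2 at any of the 3, and none had an unadjusted p under 0.05.

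The GR peak at Siglech, chr7:55784530-55784914, lies inside the gene's main H3K27ac peak. It was at 12.7, 12.3, 12.7 and 10.3 CPM in vehicle, at 14.8, 21.7, 17.5 and 21.9 with Cort, at 16.6, 20.8, 23.2 and 19.1 with Dex, and at 10.3, 8.69 and 2.26 with IL4, from 3 to 44 reads. Every steroid library was above every vehicle library, and the IL4 libraries were at or below vehicle. The order of the groups was that of H3K27ac at the same place. Against vehicle the changes were 0.65 ± 0.35 with Cort and 0.72 ± 0.35 with Dex (log2, n = 4, edgeR adjusted p = 0.175 and 0.132). With IL4 the change was -0.79 ± 0.42 (edgeR adjusted p = 0.481), and none of the 3 was called in the pooled fit with all libraries.

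Against IL4, GR at Siglech was higher with Cort by 1.44 ± 0.41 and with Dex by 1.51 ± 0.41 (edgeR adjusted p = 0.0476 and 0.0291, where 6.68% and 9.15% of all GR peaks were called, 5.42% and 7.72% higher). Within batch 2, the only one with IL4 libraries, these were 1.45 and 1.62 and were not called (adjusted p = 0.158 and 0.152). Cort lost its call without the batch term (0.0511) and in 10 of 15 omissions of a library, which were all but vehicle 3 and 4, Cort 3 and 4 and IL4 1 (adjusted p up to 0.082). Dex lost its call without Dex replicate 3 or 4 (up to 0.0887).

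GR at Xcr1 was lower with both steroids. This peak, chr9:123872963-123873133, lies 11 kb upstream of the Xcr1 start and 100 bp from the outermost H3K27ac peak. It was at 42.5, 23.4, 45.7 and 95.6 CPM in vehicle, at 19.0, 13.3, 22.0 and 25.9 with Cort, at 11.6, 17.9, 20.8 and 25.1 with Dex, and at 33.5, 32.8 and 36.1 with IL4. Vehicle replicate 4 stood highest, with the smallest scaling factor of 0.392, and the pooled groups overlapped, since vehicle replicate 2 lay below Cort replicate 4 and Dex replicate 4. Within each batch every steroid library was below every vehicle library.

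The Xcr1 GR change was -1.30 ± 0.31 with Cort and -1.39 ± 0.31 with Dex (log2, n = 4, edgeR adjusted p = 0.00822 and 0.00379), kept without any 1 library. In batch 1 alone it was -0.85 (adjusted p = 0.0834) and -1.01 (0.0459), and in batch 2 alone -1.69 (0.148) and -1.68 (0.128). Scaling by total counts reduced it to -0.40 (0.224) and -0.28 (0.45), neither called, and moved the median of all GR peaks from 0.174 to 0.957 with Cort and from -0.124 to 0.859 with Dex. In raw reads the peak held 21 to 74 in vehicle, 27 to 46 with Cort, 21 to 54 with Dex and 48 to 49 with IL4. The change is thus one relative to other GR peaks, and its size depends on the scaling. IL4 gave -0.89 ± 0.35 (adjusted p = 0.41).

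At Flt3 the steroid rise in acetylation was not matched by a called change in GR. The GR peak inside the middle H3K27ac peak, chr5:147389152-147389288, was at 4.25, 8.92, 5.72 and 5.17 CPM in vehicle, at 6.02, 8.37, 6.21 and 5.63 with Cort, at 4.44, 4.85, 5.36 and 4.18 with Dex, and at 7.52, 8.69 and 3.76 with IL4, from 3 to 17 reads. The groups overlapped, and the changes were 0.10 ± 0.32, -0.37 ± 0.34 and 0.23 ± 0.38 for Cort, Dex and IL4 (log2, edgeR adjusted p = 0.853, 0.445 and 0.886). The 95% intervals of -0.59 to 0.80 for Cort and -1.09 to 0.35 for Dex show what this depth could not resolve. The other Flt3 GR peak, chr5:147356717-147356830, was too low to test. Cort replicate 4 had 31 reads there (17.4 CPM), and the other 14 libraries had 0 to 7.

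**Figure D5:**
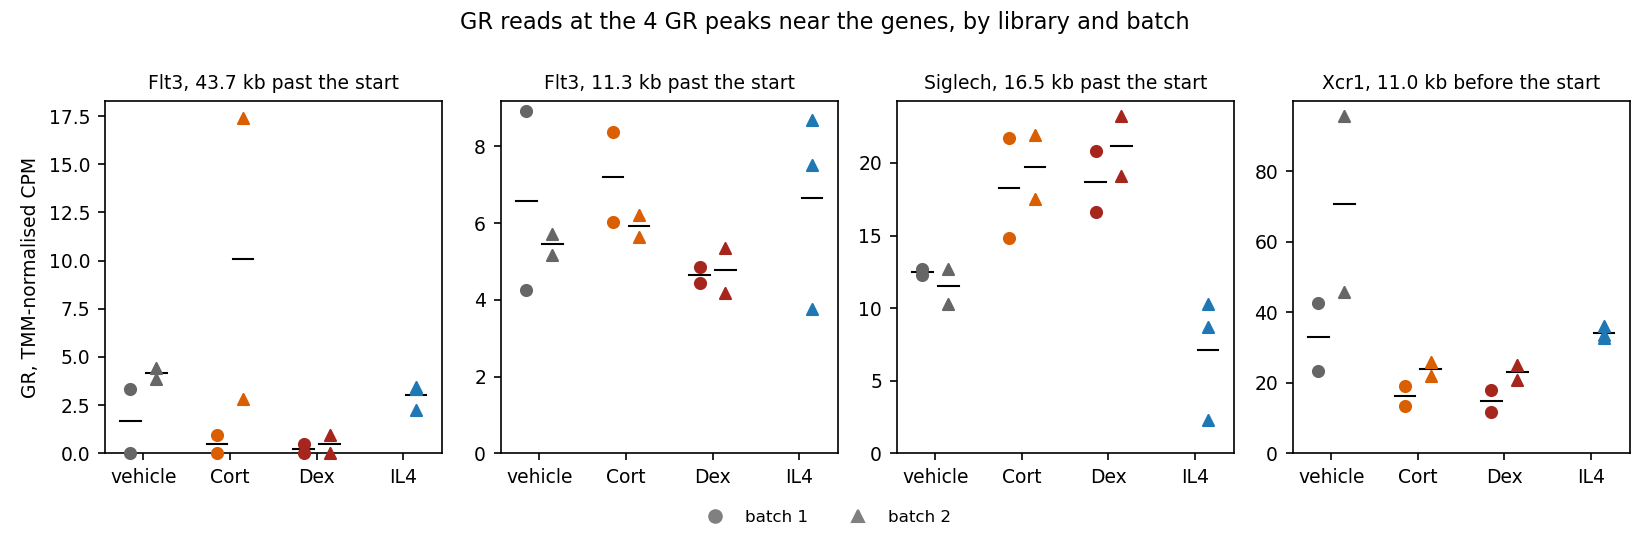
GR reads (y axis, normalised CPM, from 0, a scale for each panel) at the 4 GR peaks near Flt3, Siglech and Xcr1 in each library, by treatment (x axis); circles are batch 1, triangles batch 2, and lines are batch means. At Siglech the steroid libraries lie between 14.8 and 23.2 CPM and vehicle between 10.3 and 12.7, and at Xcr1 the vehicle libraries span 23.4 to 95.6.

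Other genes of the dendritic pathways, taken from 6 lists, followed different courses. In the list of progenitor and FLT3 signalling genes, Cort called 6 of 103 tested peaks, all higher and all nearest Irf2, which encodes an interferon regulatory factor. Dex called 10 higher and 1 lower, and IL4 29 higher and 11 lower. The leading Irf2 peak rose from 5.83 ± 1.55 CPM (SD, n = 3) to 19.6 ± 2.24 with Cort and 31.4 ± 2.52 with Dex (log2 1.77 and 2.45, edgeR adjusted p = 0.000645 and 2.75e-05). IL4 raised peaks at Cbl, the ubiquitin ligase that turns over FLT3, by 2.44 (adjusted p = 6.87e-06) and at Csf2rb, the shared chain of the GM-CSF receptor, by 1.59 (2.51e-05). Kit, a receptor of early progenitors, had no peak. With the block Cort called 24 higher and 1 lower, Dex 34 and 2, and IL4 37 and 16. The block's shares over all tested peaks were 6.44% higher and 6.13% lower with Cort, 9.91% and 10.3% with Dex, and 21.9% and 21.6% with IL4.

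In the cDC1 list, of 91 tested peaks edgeR called 0 with Cort, where 10 had an unadjusted p under 0.05 and DESeq2 called 1 higher and 2 lower. Dex called 1 higher and 4 lower, and IL4 16 higher and 7 lower. With the block these were 2 higher and 8 lower for Cort, 4 and 14 for Dex, and 27 and 9 for IL4. Batf3, a factor that cDC1 need, went up with IL4 from 4.52 to 27.4 CPM (log2 2.61 ± 0.20, edgeR adjusted p = 2.83e-06) while Xcr1 peaks went down. Cadm1, an adhesion molecule of cDC1, rose by 0.94 with IL4 (0.000183) and fell by 0.51 on the log2 scale with Dex (0.0348). A distal peak of Irf8, another cDC1 factor, rose by 0.94 with Dex (0.0192) and fell by 1.32 with IL4 (0.0008), while IL4 also called at least 1 other Irf8 peak higher.

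In the list of cDC2 and monocyte-derived dendritic cell genes, of 127 tested peaks edgeR and DESeq2 called 0 with Cort, where 13 had an unadjusted p under 0.05. Dex called 2 higher, and IL4 23 higher and 14 lower. With the block these were 8 higher and 5 lower for Cort, 9 and 9 for Dex, and 29 and 28 for IL4. The leading IL4 changes were at Itgax, which encodes CD11c (log2 2.75, from 18.2 to 122 CPM, edgeR adjusted p = 9.83e-07), Klf4 (2.62, 6.34e-05) and the lectin gene Mgl2 (2.17, 3.12e-05). In the plasmacytoid list, of 82 tested peaks Cort called 1 lower, Dex 3 higher and 1 lower, and IL4 5 higher and 8 lower (with the block 4 and 6, 6 and 11, and 11 and 20). A peak of Bcl11a, a transcription factor of that lineage, changed by -1.01 with Cort, -0.79 with Dex and -1.42 with IL4 (log2, edgeR adjusted p = 0.0485, 0.0649 and 0.000745). With IL4 a Tcf4 peak changed by -0.64 (0.00127), and a weak Runx2 peak by 2.29 (0.00129), from 0.556 to 2.68 CPM. IL4 also called other peaks of Tcf4 and Runx2 in the opposite direction.

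In the list of migratory and mature dendritic cell genes, of 82 tested peaks Cort called 2 higher, Dex 3 higher and 1 lower, and IL4 10 higher and 8 lower (with the block 8 and 5, 9 and 5, and 13 and 28). Il15ra, which presents interleukin 15, rose by 1.79 with Cort and 2.06 with Dex (log2, edgeR adjusted p = 0.00658 and 0.00137), and Cd83 rose by 1.76 with IL4 (0.000243). Birc3, an inhibitor of apoptosis, rose by 1.19 and 1.34 with the steroids (0.00219 and 0.000545). The last list held Id1, Id3, Id4, Tcf3 and Tcf12, of the Id and E protein families, with Zbtb16, Nfil3 and Cebpb, factors of other families. Of its 52 tested peaks 11 were higher with Cort and 15 with Dex, all nearest Zbtb16 or Nfil3. IL4 called 5 higher, at Nfil3 and Cebpb, and 5 lower, at Id3, Zbtb16 and Nfil3. With the block these were 18 higher and 2 lower, 22 and 2, and 9 and 7. At Nfil3, a factor of early cDC1 development, the peak with the smallest p rose with IL4 by 2.59 (edgeR adjusted p = 7.53e-06), while IL4 called at least 1 other lower. The shares of all tested peaks called higher were 1.18%, 2.90% and 14.7% for Cort, Dex and IL4, and those called lower 0.376%, 2.34% and 12.9%.

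The peaks most like each member over the 12 H3K27ac libraries, by Pearson correlation of log2 CPM with peaks on other chromosomes, are given as a description, since all points share libraries and treatments. The Flt3 peak 7.4 kb past the start was most like peaks of Gm52051 (r = 0.993), Zbtb16 (0.993) and Ddit4 (0.991). The Zbtb16 peak had log2 changes of 2.94 with Cort and 3.18 with Dex, and the Ddit4 peak 2.48 and 3.20, beside 2.96 and 3.48 at Flt3. The Gm52051 peak changed less, by 0.87 and 0.99, since the correlation does not weigh the size of a change. Xcr1 was nearest to peaks of Uts2b (0.983), Tlk1 and Prune2, and Siglech to peaks of Smagp (0.99), Ssh2 and Tmprss4. For Zbtb46 they were at Tubgcp2 (0.978), Eps8 and Paqr8, for Id2 at Gltp (0.971), Mrpl23 and Wbp2, and for Ccr7 at Tmed10 (0.975), Tspan18 and Kdr.

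The surroundings of the 6 genes were read in windows of 200 kb on either side, without the members' own peaks. Near Flt3, the log2 changes of 21 tested H3K27ac peaks had medians of 0.35, 0.42 and 0.30 with Cort, Dex and IL4, and the highest were 1.27, 1.59 and 1.59, below the steroid changes at the Flt3 peak 7.4 kb past the start. The middle Flt3 peak, at 1.37 with Cort and 1.68 with Dex, was slightly above them, and the deepest, at 0.80 and 1.04, was below. Near Xcr1, the medians of 45 peaks were -0.05, -0.05 and -0.09, and the lowest IL4 change was -1.22, against -2.44 inside the gene. Xcr1 peaks fell on both sides of -1.22 with IL4, with -1.08 at the start-site peak and -2.29 at chr9:123870466-123871844. Near Siglech the medians of 14 peaks were -0.10, -0.10 and -0.38, near Zbtb46 those of 32 peaks 0.14, 0.20 and -0.29, near Id2 those of 16 peaks 0.15, 0.09 and -0.14, and near Ccr7 those of 18 peaks 0.08, 0.04 and -0.09.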

How the data were processed

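The authors deposited raw read counts per peak over 1 peak set per assay, whole numbers on mm10; the submitters' processing notes name featureCounts, MACS2, SAMtools, Bowtie2 and fastp, and versions, duplicate handling and peak merging are not given in the sources used here. Columns headed C were taken as vehicle by elimination. An unexplained column named filtered was not used, and the input library was not analysed here.

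Counts were tested with edgeR 4.0.16 in R 4.3.3: filterByExpr by group, TMM scaling on counts in peaks, quasi-likelihood F tests over all 12 H3K27ac or 15 GR libraries (GR with batch as covariate), Benjamini-Hochberg adjustment over all tested peaks and a threshold of 0.05. Standard errors are the absolute log2 fold change over the square root of F. Residuals of H3K27ac libraries with the same number correlated at 0.268 to 0.678 (18 pairs), others at -0.449 to 0.0406. The numbers were used as pairs in the replicate block, an alternative fit, while the main H3K27ac fit held the group only. For GR same-number values ran from -0.463 to 0.176, and the main fit held the batch, not the number. The scripts were tested on simulated data. Alternatives were DESeq2 1.42.0, other scalings, no count filter, the replicate block, batches alone, other gene distances and leaving out each library.

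Genes came from RefSeq for mm10 (21896 protein-coding). The 6 members and the 12 gene lists (128 genes, all matched: 6 dendritic and Id lists, and macrophage, B cell, T and NK cell, neutrophil, fibroblast and mast cell markers) were chosen with earlier results of these data known, as was the peak rule. For each gene the text gives every library at the peak with the smallest p, the peak with the highest level, peaks called with a steroid and all GR peaks, and names up to 3 genes per list by smallest p and the 3 most correlated genes. Neutrophil and mast cell genes with peaks numbered 5 of 8 and 3 of 6, with summed levels of 42.8 to 54.9 and 6.63 to 9.78 CPM in vehicle. The B cell markers without peaks are not reported here.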

Additional observations from a re-analysis of the deposited data

Results flagged for a closer look

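At the GR peak chr5:147356717-147356830 inside Flt3, Cort replicate 4 stood at 17.4 CPM, far from the other 3 Cort libraries at 0, 0.926 and 2.82 CPM, a gap beyond the 95% limit of Dixon's test for 4 samples. The peak held 31 reads in that library and at most 7 in any other. Chance flags about 1 in 20 groups, and this was 1 of 12 groups examined; the peak was too low for the test between treatments.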

How the results depend on the processing

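No call at a named peak changed direction under any alternative. With the replicate block, counts of called H3K27ac peaks of the 6 genes were 8 in place of 1 for Cort against vehicle, 9 in place of 3 for Dex, 15 in place of 11 for IL4, 16 in place of 6 for Cort against IL4 and 12 in place of 7 for Dex against IL4. DESeq2 called 3 for Cort. Without replicate 2 of all groups, an alternative chosen after seeing the data, Cort and Dex each called 6. With the nearest gene taken among all annotated genes IL4 called 7 in place of 11, of 16 tested peaks. Leaving out 1 library gave 1 to 3 for Cort, 1 to 5 for Dex, 3 to 11 for IL4, 0 for Dex against Cort, 5 to 8 for Cort against IL4 and 5 to 7 for Dex against IL4. For GR, Cort and Dex each called 1 peak against vehicle. For Cort this became 0 without the count filter, in batch 1 alone, in batch 2 alone, within 10 kb and with all annotated genes, and 2 with the replicate block without IL4 libraries. For Dex it became 0 in batch 2 alone, within 10 kb and with all annotated genes, and 2 without the count filter and with that block. These are counts of peaks, and the Xcr1 GR peak itself lost its call with both steroids under scaling by total counts. DESeq2 called 1 for IL4 in place of 0. Leaving out 1 library gave 1 to 2 for Cort and for Dex and 0 for IL4. Fewer peaks were tested with all annotated genes and within 10 kb; for the other settings the cause was not tested. The tested GR peaks at Flt3 and Siglech held 3 to 17 and 3 to 44 reads per library; whether depth limits the calls there was not tested.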
